A study of Mus musculus with 4 samples.

Results

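AP-2-dependent regions that lay close to gene start sites were examined in surface ectoderm, the epithelial sheet that covers the facial prominences of the mouse embryo. These regions were selected on the measured difference between control and EDKO ectoderm, as stretches of the genome where chromatin was called more open in control than in EDKO embryos at embryonic day 11.5. A region was called proximal when no more than 5 kb separated its centre from the nearest gene start on chromosomes 1 to 19, with 1 start site taken for each protein-coding gene. Of the 3103 regions called, 3010 lay on these chromosomes and 322 were proximal.

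Chromatin opening was measured by ATAC-seq, in which a transposase inserts sequencing adapters into DNA that is not wrapped in nucleosomes. EDKO embryos carried the Crect transgene, whose Cre recombinase acts in the early ectoderm, and were Tfap2a flox/flox; Tfap2b flox/flox, so that both AP-2 genes were deleted in the ectoderm. Controls were littermates without Crect that were Tfap2a flox/+; Tfap2b flox/+, so floxed alleles were present in both groups. Ectoderm was pooled over prominences and embryos, and 2 libraries were made per group. Only pooled calls were analysed here, with no value for a single library, so no difference between the groups could be tested. The intervals given below are 95% intervals, by the Wilson formula for shares and from the ranked values for medians. They cover only counting error over regions, peaks or genes, which are not replicates.

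AP-2 proteins are transcription factors that bind DNA as dimers at GC-rich palindromes, and AP-2alpha (Tfap2a) and AP-2beta (Tfap2b) are the main members in facial ectoderm. A promoter is the stretch around a start site where the transcription machinery assembles, and many promoters are rich in CpG dinucleotides and open in most cell types. Elements that act on only some cell types more often lie away from the start site, in the flanking sequence or in the first introns.

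The tissue label was compared with the control peaks, the intervals called open in the 2 control libraries together. A control peak lay over the start site of 12 of 12 surface ectoderm markers, 4 of 4 neural markers, 7 of 10 mesenchyme and neural crest markers and 1 of 7 endothelial and blood markers. An open start site alone therefore did not separate ectoderm from neural or crest cells. Of these markers only Krt5, Krt8 and Krt14, keratins of simple and stratified epithelia, had a proximal region. The start sites of the 2 deleted genes, Tfap2a and Tfap2b, each lay in a control peak, and neither had a region within 5 kb. Each of the 2 genes had 1 region elsewhere in its gene body. Floxed exons of both genes are removed in EDKO ectoderm, and whether these regions lie in the removed DNA was not tested.

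The sequences of 9 regions are shown because they carry the main features described below: AP-2 strings close to the start sites of Wnt3, Wnt10a, the keratin gene Krt8, Lmna, Bard1 and Perp, and, for contrast, a Krt5 region and a repeated region without such a string. Each is the reference sequence of GRCm38, up to 145 bases either side of the summit (the base with the strongest signal), kept inside the region and clear of annotated untranslated exon sequence. It is written 5′ to 3′ on the strand of the gene. Capitals mark the AP-2 palindrome GCCNNNGGC and the shorter AP-2 string CCTNAGG.

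The first region lies just upstream of Wnt3, a secreted WNT ligand of the facial epithelium, at chr11:103773863-103774146 on the plus strand, and holds 2 palindromes and 1 short string, the short string overlapping the second palindrome.
Wnt3 start site: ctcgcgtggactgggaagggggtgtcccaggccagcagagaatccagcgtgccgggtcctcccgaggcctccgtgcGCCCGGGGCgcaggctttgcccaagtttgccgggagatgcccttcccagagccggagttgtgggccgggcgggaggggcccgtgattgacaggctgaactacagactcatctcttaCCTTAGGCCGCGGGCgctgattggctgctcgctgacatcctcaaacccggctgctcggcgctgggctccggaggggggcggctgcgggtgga
A second Wnt3 region lies farther upstream, and the part around its summit, at chr11:103771621-103771911 on the plus strand, holds 1 palindrome.
Wnt3 upstream: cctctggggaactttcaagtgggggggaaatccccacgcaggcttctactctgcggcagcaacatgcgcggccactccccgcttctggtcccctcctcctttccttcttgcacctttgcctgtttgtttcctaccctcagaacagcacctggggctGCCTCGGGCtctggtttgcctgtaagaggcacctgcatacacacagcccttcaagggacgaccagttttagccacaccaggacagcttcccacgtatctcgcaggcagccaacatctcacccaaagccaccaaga
The region in intron 2 of Wnt10a, a WNT ligand needed for teeth and other ectodermal appendages, is shown at chr1:74794559-74794792 on the plus strand and holds 1 palindrome.
Wnt10a intron: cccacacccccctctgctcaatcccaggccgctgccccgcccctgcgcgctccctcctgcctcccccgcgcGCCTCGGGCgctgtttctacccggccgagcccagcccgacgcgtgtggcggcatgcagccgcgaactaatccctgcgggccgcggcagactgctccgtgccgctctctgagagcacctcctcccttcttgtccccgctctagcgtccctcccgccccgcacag
For Krt8, a keratin of simple epithelia and of the periderm, the sequence shown is chr15:102005494-102005782 on the minus strand, where 2 palindromes overlap at the 3′ end.
Krt8 upstream: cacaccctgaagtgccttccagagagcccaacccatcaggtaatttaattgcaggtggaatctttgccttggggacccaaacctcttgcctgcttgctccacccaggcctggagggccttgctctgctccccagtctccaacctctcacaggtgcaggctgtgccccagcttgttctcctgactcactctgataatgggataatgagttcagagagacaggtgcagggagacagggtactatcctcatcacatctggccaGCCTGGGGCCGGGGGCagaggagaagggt
Lmna encodes the nuclear lamins A and C, and the region at the start site used is shown at chr3:88503387-88503568 on the minus strand, with 2 palindromes. This start site, at 88503335, lies inside the gene, whose annotated 5′ end is at 88509956.
Lmna start site: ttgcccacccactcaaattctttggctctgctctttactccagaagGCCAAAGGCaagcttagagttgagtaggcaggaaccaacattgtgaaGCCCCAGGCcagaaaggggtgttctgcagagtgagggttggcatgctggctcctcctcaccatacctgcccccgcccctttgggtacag
Bard1 encodes a partner of BRCA1 in DNA repair, and its region is shown at chr1:71103147-71103386 on the minus strand, with 1 palindrome and 2 short strings, of which the second lies inside the palindrome.
Bard1 start site: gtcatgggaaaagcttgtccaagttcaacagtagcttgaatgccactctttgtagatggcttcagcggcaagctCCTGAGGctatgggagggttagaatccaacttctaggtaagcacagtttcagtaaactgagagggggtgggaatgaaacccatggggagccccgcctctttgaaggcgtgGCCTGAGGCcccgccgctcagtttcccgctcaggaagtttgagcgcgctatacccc
Perp encodes a membrane protein of desmosomes, and its intron 1 region is shown at chr10:18846572-18846842 on the plus strand, with 1 short string.
Perp intron: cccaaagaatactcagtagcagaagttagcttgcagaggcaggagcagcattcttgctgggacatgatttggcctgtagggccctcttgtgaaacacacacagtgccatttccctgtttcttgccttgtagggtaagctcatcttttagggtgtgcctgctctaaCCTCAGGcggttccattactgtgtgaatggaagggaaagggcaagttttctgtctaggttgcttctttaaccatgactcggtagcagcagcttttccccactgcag
The region next to the start site of Krt5, a keratin of basal epithelial cells, is shown at chr15:101712924-101713118 on the minus strand and holds neither AP-2 string.
Krt5 start site: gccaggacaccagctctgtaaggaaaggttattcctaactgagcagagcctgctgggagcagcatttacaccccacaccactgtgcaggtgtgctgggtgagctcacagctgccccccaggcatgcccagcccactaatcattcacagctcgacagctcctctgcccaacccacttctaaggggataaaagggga

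The proximal regions were of 2 kinds, which differed in position and sequence and are described apart. In 247 regions the sequence was single-copy, meaning that the median 31-base word of the region occurred fewer than 2 times in the assembly. The other 75 (23.3%, 19 to 28.2) consisted of repeated sequence, against 250 of the 2688 regions farther than 5 kb (9.30%, 8.26 to 10.5). Up to 10 alignments per read were kept in the mapping. Whether reads from these copies had a unique placement, and whether this shaped the calls, was not tested.

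Repeated regions clustered in a few gene arrays. On chromosome 13, 16 regions lay at 16 genes of histone cluster 1, which encode core histones and are expressed in dividing cells. They fell into 4 runs of 7, 3, 4 and 2 regions, between positions 21715931 and 23757380, and the start site lay inside the control peak at all of them. Of the 54 genes of the cluster, 32 had a region within 5 kb, none of them single-copy, against 1.62% of all protein-coding genes. Neighbouring genes shared regions, so these 32 are not separate cases. Of the 46 control peaks near the genes of the cluster, 13 held a region (28.3%), against 1.56% of all proximal control peaks. On chromosome 4, between positions 88760659 and 88806316, 14 regions lay at 13 gene models that include Ifnz, an interferon zeta gene, and a typical word of their sequence occurred 13 or 14 times. Their area values ran from 459 to 2912, and 9 of the 14 regions covered a start site. The example below is the region at Gm13289, chr4:88776672-88776962 on the plus strand, and neither it nor any of the other regions of this array held an AP-2 string in the 301 bases around its summit.
Gm13289 start site: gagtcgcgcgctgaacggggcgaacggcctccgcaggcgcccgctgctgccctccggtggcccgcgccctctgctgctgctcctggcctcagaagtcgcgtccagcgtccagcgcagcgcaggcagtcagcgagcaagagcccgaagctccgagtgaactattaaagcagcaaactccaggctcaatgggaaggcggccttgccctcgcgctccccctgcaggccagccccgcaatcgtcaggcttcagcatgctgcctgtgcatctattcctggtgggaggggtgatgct

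On chromosome 9, 18 regions lay at 8 gene models between positions 2999957 and 3038305, all within 2 control peaks, in sequence of which a median of 96.7% was masked as repeat in the assembly. These gene models, with Gm10800 and Gm10801 on chromosome 2 and Gm21738 on chromosome 14, held 23 regions and 88.2% of the summed area of all 322, where the area is the peak caller's −log10 p above its threshold summed over the bases of a region. The largest was at Gm10800, with an area of 631633 and a summit −log10 p of 1342. Of these 23 regions, 3 passed the limit for single-copy sequence: 1 each at Gm21738, Gm10800 and Gm10801, with areas of 159840, 17256.5 and 2587. They were kept in the single-copy counts below, and leaving them out moved the share with the short AP-2 string from 33.6% to 34.0%.

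**Figure D1:**
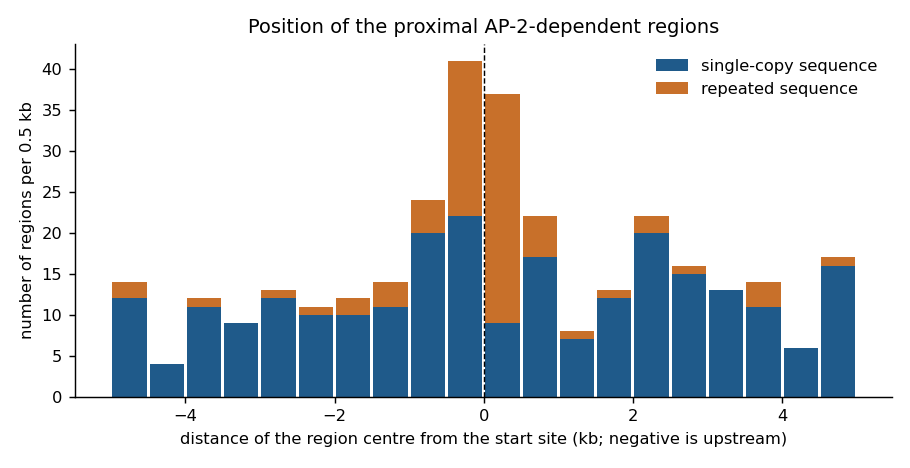
Number of proximal AP-2-dependent regions in 0.5 kb steps of the signed distance between the region centre and the start site (x axis, kb, negative upstream), with single-copy regions (247) below and repeated regions (75) stacked above. Repeated regions gathered at the start site, with 39 of 75 within 250 bp, against 22 of 247 single-copy ones.

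The repeated regions sat on the start site far more often than the single-copy ones. Of the 75, 39 (52.0%, 40.9 to 62.9) were centred within 250 bp and 34 (45.3%, 34.6 to 56.6) covered the start site itself. Among the 247 single-copy regions, 22 (8.91%, 5.96 to 13.1) were centred within 250 bp and 15 (6.07%, 3.71 to 9.78) covered the start site. The median distance was 241 bp for repeated regions and 2184 bp for single-copy ones. Of the 49 regions that covered a start site, 34 were therefore of repeated sequence, and the plot of signed distances shows the same concentration.

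Single-copy regions were mostly beside the core promoter and not on it. Only 68 of 247 (27.5%, 22.3 to 33.4) were centred within 1 kb. Of the control peaks without a region that were single-copy and proximal, 12333 of 18126 (68.0%, 67.4 to 68.7) were. This second share is taken at peak centres. Read in the same way, 81 of the 242 single-copy control peaks that held a region (33.5%, 27.8 to 39.6) were centred within 1 kb. The control peak around a region covered the start site in 86 cases (34.8%, 29.2 to 41.0), and in 71 of these 86 the region itself stopped short of it. A region filled a median of 38.1% of its control peak, and 18.9% when centred within 1 kb. Near start sites the calls thus marked a narrow part of a wide open domain: the regions within 1 kb had a median width of 305.5 bp, and their control peaks one of 1818 bp.

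Within 1 kb the regions lay upstream more often than control peaks without a region. Of the 68, 42 (61.8%, 49.9 to 72.4) had their centre upstream of the start site, against 27.2% (26.5 to 28) of the control peaks without a region. These shares set centres of narrow regions against centres of wider peaks. Read at their own centres, 38 of the 81 single-copy control peaks with a region within 1 kb (46.9%, 36.4 to 57.7) lay upstream. Counted over control peaks, a single-copy region was held by 1.12% (0.815 to 1.53) of those centred upstream and 0.476% (0.354 to 0.641) of those centred downstream. From 1 to 5 kb there was no such lean, with 2.69% (2.13 to 3.38) upstream and 2.72% (2.22 to 3.32) downstream. In the annotation of the nearest gene, 98 of the 247 summits lay in an intron, 73 of them in intron 1, 7 in a 5′ UTR and 6 in a coding exon. Of the 179 regions beyond 1 kb, 25 lay within 1 kb of another annotated start of a protein-coding gene, so some were closer to a promoter than the single start site per gene shows.

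Open promoters rarely held an AP-2-dependent region. Over all 19019 proximal control peaks, 297 overlapped one by at least 1 bp (1.56%, 1.39 to 1.75), and over the 18381 single-copy peaks 242 did (1.32%). In single-copy peaks the share was 0.393% (0.275 to 0.561) for those centred within 250 bp of a start site and 0.756% (0.505 to 1.13) from 250 to 500 bp. It was 1.60% (1.11 to 2.30) from 500 bp to 1 kb, 1.97% (1.43 to 2.70) from 1 to 2 kb and 3.11% (2.35 to 4.09) from 2 to 3 kb. It stayed near 3% up to 5 kb and was 8.38% (7.88 to 8.90) beyond 100 kb. Up to 5 kb the intervals of neighbouring steps overlapped, while those of the first and the last proximal step did not.

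**Figure D2:**
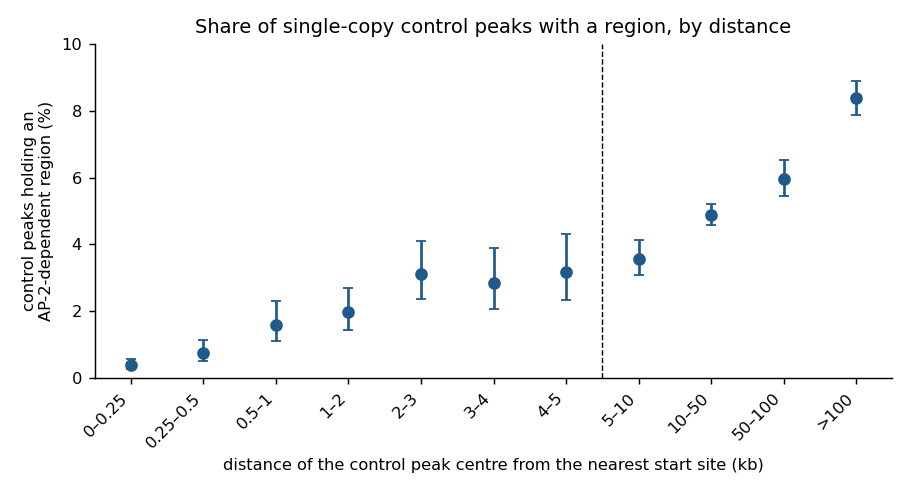
Percentage of single-copy control peaks that held a single-copy AP-2-dependent region (y axis), by distance of the peak centre from the nearest start site (x axis, kb), with 95% Wilson intervals and a dashed line at the 5 kb limit. The share was 0.393% within 0.25 kb, 3.18% from 4 to 5 kb and 8.38% beyond 100 kb.

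Peaks near start sites were also stronger, so the same shares were taken in 3 equal classes of control peak area. In the lowest class 0.321% (0.147 to 0.698) of peaks within 1 kb and 1.57% (1.24 to 1.99) of peaks from 1 to 5 kb held a region. In the middle class these shares were 0.370% (0.234 to 0.584) and 4.91% (3.85 to 6.24), and in the highest class 1.00% (0.774 to 1.30) and 7.36% (5.26 to 10.2). The share was thus lower within 1 kb in each class. Start sites were also split by CpG content, calling a site CpG-rich when the 500 bp either side held at least 50% GC and a CpG ratio, observed over expected, of at least 0.6. Within 1 kb, 0.535% (0.403 to 0.711) of the peaks at CpG-rich sites and 0.934% (0.669 to 1.30) of those at CpG-poor sites held a region. From 1 to 5 kb the shares were 2.23% (1.79 to 2.79) and 3.31% (2.69 to 4.07).

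The single-copy regions closest to a start site were at genes of varied function, and some repeated regions were centred closer still. Desi2, which encodes a peptidase that acts on SUMO conjugates, had a region of area 1745 centred 31.5 bp downstream. At Gpx1, a glutathione peroxidase that removes hydrogen peroxide, the centre lay 37.5 bp downstream, with an area of 1411 and 2 palindromes. Art4, a gene of the ADP-ribosyltransferase family, had 1 region 28.5 bp upstream and another in intron 1, 1.19 kb downstream, inside the same control peak, and each held 1 palindrome. Other single-copy regions among the 10 closest were at the zinc finger gene Zfp456, the chromatin remodelling gene Actl6a, Bard1, Krt5, the signalling kinase gene Ripk2 and Lmna. Of the 10 closest single-copy regions, 9 covered the start site, and the one at Krt5 did not. Their areas lay between 219 and 1745, and 6 of the 10 held at least 1 AP-2 string.

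By area, the leading single-copy regions after the 3 repeat gene models were at Efna1, Cldn8, Desi2, Ajuba, Wnt3, Spo11 and Gpx1. Efna1 encodes an ephrin, a membrane ligand in cell sorting, and its region lay 2.73 kb upstream with an area of 2347 and 1 palindrome. Cldn8 encodes a claudin of tight junctions, and its region, 298 bp upstream, reached an area of 1893 without an AP-2 string. Ajuba encodes a LIM protein that links cell junctions to Hippo signalling, and its intron 1 region had an area of 1589 within a control peak of 6315 bp. Spo11, known for its part in meiotic recombination, had a region 2.24 kb upstream of the start site used, with an area of 1420. This start site, at 172979849, lies inside the gene, and the region lay close to its annotated 5′ end at 172977700. These values come from the call that chose the regions and describe their order only.

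Gene lists of ectodermal structure and signalling were read against the background of all genes. A region of any kind lay within 5 kb of 335 of 20722 protein-coding genes (1.62%), a single-copy one within 5 kb of 250 (1.21%), and of the 14836 genes with a proximal control peak 249 had a single-copy one (1.68%). The lists with the highest shares were keratins, with 4 of 16 genes (25%, 10.2 to 49.5), and WNT ligands, with 4 of 19 (21.1%, 8.51 to 43.3). Over the control peaks near these genes, 5 of 27 (18.5%) at keratins and 5 of 45 (11.1%) at WNT ligands held a region. Both lists contain genes that earlier results of these data had brought forward, so their shares are a description.

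The WNT ligands signal between ectoderm and the mesenchyme beneath it. Wnt10b had 3 regions, more than any other gene among the single-copy ones: 2.95 kb and 2.31 kb upstream in 1 control peak, and 2.39 kb downstream in intron 3, with areas of 889, 275 and 661. None of the 3 held an AP-2 string in its window. At Wnt3 a single control peak of 4293 bp held both regions, at 2 kb and 156 bp upstream, with areas of 1511 and 289. The upstream Wnt3 region was 1487 bp wide and the one at the start site 306 bp. The Wnt10a region lay 3.14 kb downstream of the start site and filled 5.64% of its control peak. Wnt5b, a ligand mostly linked to signalling without beta-catenin, had 1 region 2.83 kb upstream. The remaining 15 WNT ligands had none.

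Elsewhere in the WNT pathway regions were few. Among 25 genes of WNT receptors and secretion only Fzd8, a Frizzled receptor, had one, 4.90 kb downstream of its start site in the 3′ UTR. Among 19 inhibitors and feedback genes only Sostdc1, a secreted antagonist of WNT and BMP signals, had one, 496 bp upstream. None of 11 genes of the nuclear and destruction complexes had one, which allows a share of up to 25.9%.

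The keratin regions lay upstream of their genes. Krt5 had 2, at 3.17 kb and 111 bp, of which the farther held 1 short AP-2 string. The nearer filled 7.27% of a control peak of 3025 bp. Its partner Krt14, the other keratin of basal cells, had a region 1.18 kb upstream with an area of 252, without either string. Krt15, another keratin of basal epithelial cells, had one centred 174 bp upstream that covered the start site, and Krt8 one 1.21 kb upstream, with an area of 920. All 4 genes had CpG-poor start sites, with CpG ratios of 0.271 at Krt5, 0.291 at Krt14, 0.265 at Krt15 and 0.378 at Krt8.

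**Figure D3:**
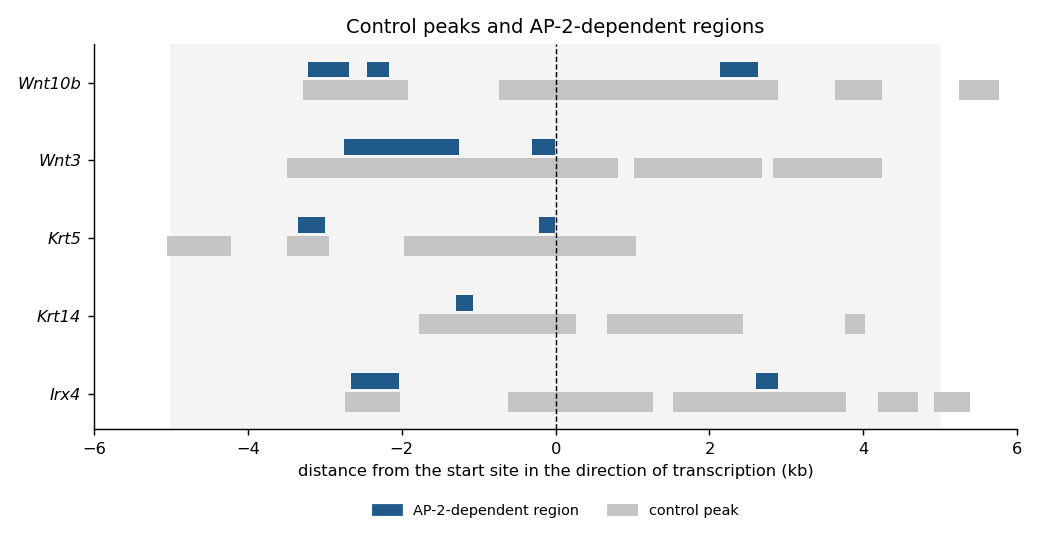
Control peaks (grey) and AP-2-dependent regions (blue) around the start sites of Wnt10b, Wnt3, Krt5, Krt14 and Irx4, drawn to scale against the distance from the start site (x axis, kb, in the direction of transcription), with the 5 kb limit shaded. The regions are short parts of the control peaks, and those of Wnt3 and Krt5 nearest the start site end upstream of it.

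Genes of cell junctions carried single regions. Among 25 genes of desmosomes, hemidesmosomes and laminin-332, Pkp3 (plakophilin 3, a desmosomal plaque protein) had a region 663 bp upstream and Perp one 1.66 kb downstream. Among 30 genes of adherens, tight and gap junctions, Cldn8 was joined by Cldn1, a claudin of the skin barrier, with a region 1.60 kb upstream, and Gjb6, which encodes connexin 30, with one 3.06 kb downstream. Each list's interval, 2.22 to 25% for the first and 3.46 to 25.6% for the second, lay above the 1.21% of all genes. So did those of the facial patterning, FGF, Hedgehog and Hippo lists below. The facial patterning (1.58 to 18.6%) and Hippo (1.49 to 35.4%) intervals did include the 1.68% of genes with a proximal control peak. Of control peaks near the genes, 5% held a region in the first list and 5.45% in the second. The shares were 7.41% for Hedgehog, 5.26% for Hippo and 2.5% for both facial patterning and FGF, against 1.56% of all proximal control peaks. All lists were written with earlier results of these data known, so these shares are a description.

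Of 35 transcription factors of facial patterning, 2 had proximal regions (5.71%, 1.58 to 18.6). Irx4 had 2 regions, 2.35 kb upstream and 2.75 kb downstream, and Hand1, a factor of the distal mandibular arch, had 1 region, 1.69 kb upstream, with 2 palindromes. None of 26 epithelial transcription and splicing regulators had a proximal region, although 24 of them had a proximal control peak. Their interval reached up to 12.9%, so the list could not be told apart from the 1.21% of all genes.

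Other signalling lists held 1 or 2 genes each. In the Hedgehog list of 14 the effector gene Gli2 had a region 3.10 kb downstream in intron 1. In the FGF list of 19 the genes were the receptor gene Fgfr3, 4.96 kb upstream, and Dusp6, a phosphatase that limits ERK signalling, 1.76 kb downstream. The BMP and TGF-beta list of 26 held only Id3, an inhibitor of helix-loop-helix factors, 3.43 kb downstream, and the Notch list of 17 only Lfng, a modifier of Notch receptors, 3.45 kb downstream. Ajuba was the 1 gene of 12 in the Hippo and TEAD list. Of 22 further genes that the study lists from its own results, in part on other samples, only Rhou had a region, 1.67 kb upstream. The study places Rhou in a gene pair whose many clustered peaks it ascribes to direct repeats. The region here counted as single-copy. The lists for ectodysplasin and NF-kB signalling (9 genes), semaphorins and their receptors (12) and mesenchyme and neural crest (20) held none. Of 79 ribosomal protein genes, which have open promoters in every cell, 2 had a region, Rpl13 and Rps27, at 1.91 kb upstream and 4.98 kb downstream.

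**Figure D4:**
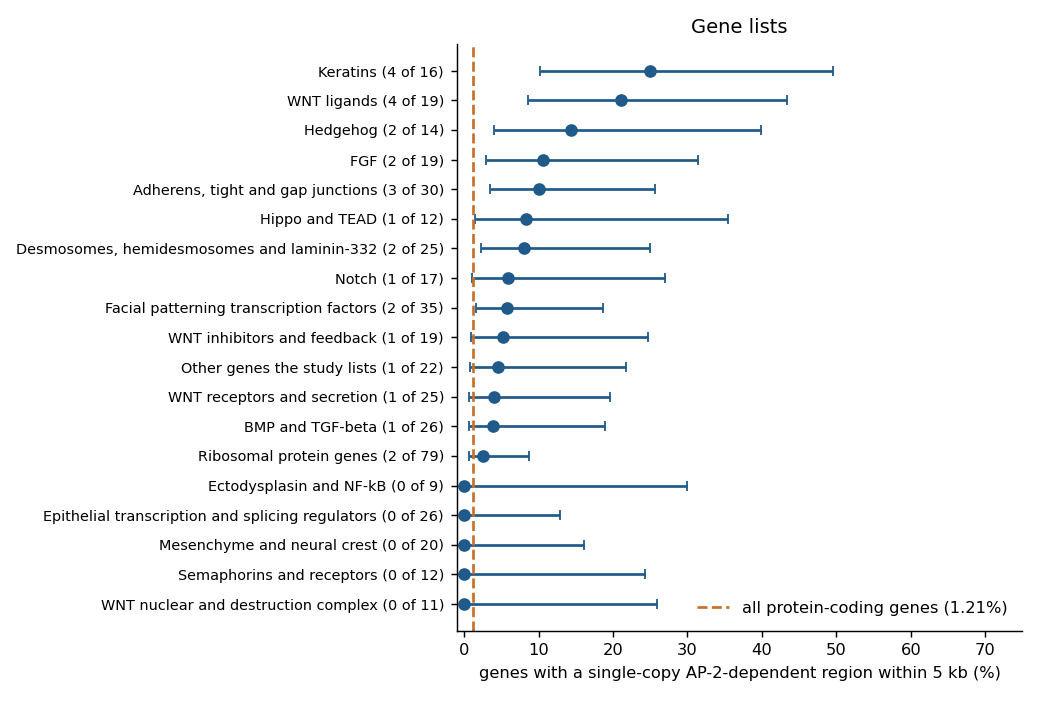
Percentage of genes in each list with a single-copy AP-2-dependent region within 5 kb of the start site (x axis), with 95% Wilson intervals and the counts beside each name, and a dashed line for all protein-coding genes. Keratins (25%) and WNT ligands (21.1%) sit highest, and 5 lists hold no such gene.

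Apart from Wnt10b, Wnt3, Krt5, Irx4, Art4, and the repeat gene models Gm10800 and Gm10801, 4 genes had more than 1 single-copy region within 5 kb. Pcp4l1, a small gene related to the calmodulin-binding protein PEP-19, had 2 in intron 1, with areas of 589 and 896. Mllt6, a chromatin reader gene, had 1 either side of its start site, 964.5 bp upstream and 1.70 kb downstream, in 1 control peak. The sugar transporter gene Slc2a13 had 2, 4.51 kb upstream and 2.13 kb downstream, and the gene model Gm5416 also had 2.

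The last regions inside the limit of 5 kb were at Rps27 (4976 bp), Fgfr3 (4961 bp) and Rab29 (4945 bp), with summit −log10 p of 4.56, 3.63 and 5.86. The first outside were at Rxfp1 (5056 bp), Arhgap18 (5085.5 bp) and Etv3 (5109.5 bp), with 7.34, 3.68 and 4.00.

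The rule used position and the control-to-EDKO call, and no sequence. In the 301 bases centred on the summit, 63 of 247 single-copy proximal regions (25.5%, 20.5 to 31.3) held the palindrome GCCNNNGGC on either strand. It was as frequent in single-copy regions beyond 5 kb, at 26.8% (25.1 to 28.6), in proximal control peaks without a region, at 26.3% (25.7 to 26.9), and in windows of the same length centred on all protein-coding start sites, at 22.9% (22.3 to 23.4). Taken alone, the palindrome thus did not set the proximal regions apart from other open promoters.

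The shorter string CCTNAGG did. It occurred in 83 of 247 proximal regions (33.6%, 28 to 39.7), in 39.4% (37.5 to 41.4) of the single-copy regions beyond 5 kb, and in 12.7% (12.3 to 13.2) of proximal control peaks without a region. Over all start-site windows it occurred in 11.3% (10.9 to 11.7). Within 1 kb the shares were 38.2% (27.6 to 50.1) of 68 regions and 11.1% (10.6 to 11.7) of control peaks without a region, and from 1 to 5 kb 31.8% (25.5 to 39.0) and 16.2% (15.2 to 17.1). At least 1 of the 2 strings, which can overlap, was found in 122 of the 247 (49.4%, 43.2 to 55.6), against 35.1% (34.4 to 35.8) of the control peaks.

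Base composition differed as well, and GC-rich strings depend on it. The median GC content of the windows was 50.2% in the single-copy proximal regions, 46.8% in the regions beyond 5 kb and 61.5% in the control peaks without a region. The CpG ratio had medians of 0.232, 0.206 and 0.702. In windows with 45 to 55% GC, a range chosen after the values were seen, the palindrome occurred in 27 of 107 proximal regions (25.2%, 18 to 34.2) and in 11.4% (10.5 to 12.5) of 3960 control peaks without a region. In the same range the short string occurred in 36.4% (27.9 to 45.9) and 15.4% (14.3 to 16.5). At like GC content both strings were therefore more frequent in the proximal regions.

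A window centred on the summit of the control-to-EDKO call is not placed as one centred on the summit of a control peak. When the 242 single-copy control peaks that held a region were read at their own summits, the short string occurred in 30.2% (24.7 to 36.2), still above the 12.7% of the peaks without a region, and the palindrome in 26.4% (21.3 to 32.3). Within 1 kb, however, the short string occurred in 23.5% (15.6 to 33.8) of these peaks, against 38.2% in windows centred on the regions, and the intervals overlapped. The summit of the region and that of the control peak lay a median of 116.5 bp apart within 1 kb and 14 bp apart from 1 to 5 kb.

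**Figure D5:**
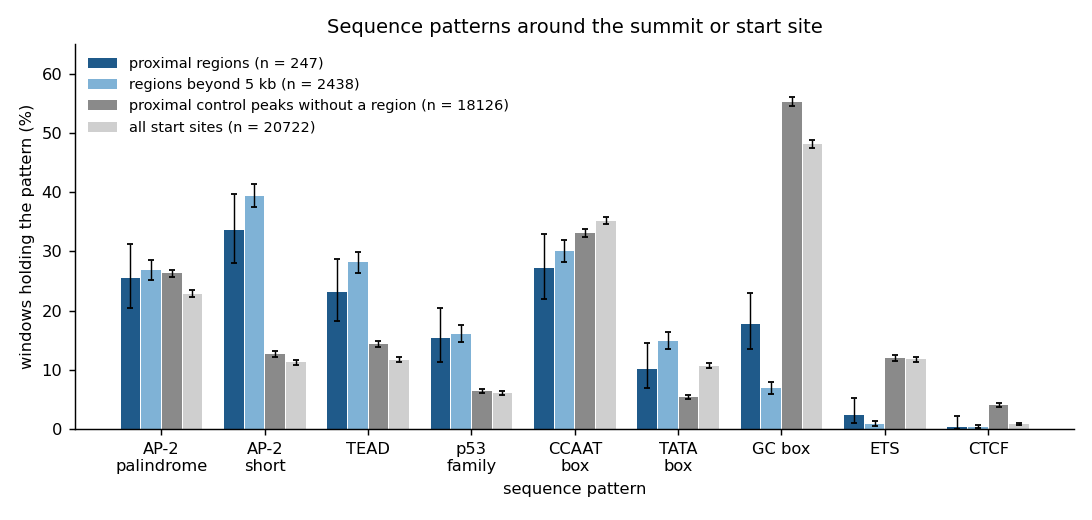
Percentage of 301-base windows (y axis) that held each sequence pattern (x axis) in single-copy proximal regions, single-copy regions beyond 5 kb, single-copy proximal control peaks without a region, and all protein-coding start sites, with 95% Wilson intervals. The short AP-2 string, the TEAD string and the p53 family pattern were more frequent in both sets of regions than in the control peaks (33.6%, 23.1% and 15.4% in the proximal regions), and the GC box less (17.8% against 55.3%).

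Several patterns of other factors also differed in frequency when base composition was left aside. GGGCGG, the GC box bound by SP factors at many promoters, occurred in 17.8% (13.5 to 23.1) of the proximal regions, 6.97% (6.03 to 8.05) of the regions beyond 5 kb, 55.3% (54.6 to 56.0) of the control peaks without a region and 48.2% (47.5 to 48.9) of all start-site windows. CCGGAAG, read by ETS factors, occurred in 2.43% (1.12 to 5.20) of the proximal regions and 12% (11.6 to 12.5) of those control peaks. The TEAD string GGAATG was found in 23.1% (18.3 to 28.7) and 14.4% (13.9 to 14.9), and the p53 family pattern, which p63 shares, in 15.4% (11.4 to 20.4) and 6.5% (6.15 to 6.87). CCAAT was less frequent in the proximal regions, at 27.1% (22.0 to 33.0) and 33.2% (32.5 to 33.9), but the intervals overlapped. The Grainyhead-like string AACCGGTT and the CTCF pattern were each found in 1 proximal region. The share of all start-site windows with the TEAD string was 11.7%, that with the ETS string 11.8%, that with the p53 family pattern 6.06%, that with CCAAT 35.2%, that with AACCGGTT 0.145% and that with the CTCF pattern 0.849%. TATAAA occurred in 10.1% (6.95 to 14.5) of the proximal regions, 14.9% (13.6 to 16.4) of the regions beyond 5 kb, 5.49% (5.17 to 5.83) of the control peaks without a region and 10.8% of all start-site windows.

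In windows with 45 to 55% GC the differences in the TEAD, p53 family, ETS, TATAAA and GC box shares were not larger than the intervals, while the CTCF pattern was in 0.935% (0.165 to 5.10) of the proximal regions and 8.94% (8.09 to 9.87) of the control peaks without a region. There the TEAD string was in 22.4% (15.6 to 31.2) of the proximal regions and 22.7% (21.4 to 24) of the control peaks without a region, and the p53 family pattern in 15.9% (10.2 to 24) and 11.7% (10.7 to 12.7). The ETS string was in 2.80% (0.958 to 7.92) and 5.35% (4.69 to 6.10), TATAAA in 8.41% (4.49 to 15.2) and 9.27% (8.4 to 10.2), and the GC box in 11.2% (6.53 to 18.6) and 18.2% (17 to 19.4), and in each of these pairs the intervals overlapped. The GC box also depended on where the window was placed. Read at the summits of the 242 control peaks that held a region, it was in 30.2% (24.7 to 36.2), and within 1 kb in 56.8% (45.9 to 67), against 29.4% (19.9 to 41.1) in windows centred on the regions and 69.9% (69 to 70.7) in the control peaks without a region.

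From 1 to 5 kb, where both sets had fewer CpG dinucleotides, several of these differences were small. The TEAD string occurred in 22.3% (16.9 to 29) of 179 regions and 21.7% (20.7 to 22.8) of the control peaks without a region, and the p53 family pattern in 15.1% (10.6 to 21.1) and 11% (10.2 to 11.9). The CTCF pattern, by contrast, was in 1 of these regions (0.559%, 0.0987 to 3.10) and in 9.11% (8.4 to 9.88) of the control peaks. The GC box was in 13.4% (9.18 to 19.2) and 24.3% (23.2 to 25.4).

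In the repeated regions the short AP-2 string was less frequent than in the single-copy ones, at 5 of 75 (6.67%, 2.88 to 14.7). The palindrome occurred in 11 of 75 (14.7%, 8.39 to 24.4), an interval that overlapped that of the single-copy regions. In the histone runs the palindrome was found in 5 of 16 regions and the short string in none. In the arrays on chromosomes 4 and 9 neither string was found. The summit −log10 p had a median of 8.89 in repeated and 4.42 in single-copy regions, so ranking the 322 by signal would bring the repeated ones forward.

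The control peak around a single-copy proximal region had a median percentile of 79.7 (77.2 to 83.7) by summit −log10 p among all control peaks, near the 78.3 (77.8 to 78.8) of proximal control peaks without a region and above the 69.4 (68.5 to 70.5) of single-copy regions beyond 5 kb. Within 1 kb the medians were 90.1 (85.5 to 93.4) with and 86.2 (85.9 to 86.6) without a region, and from 1 to 5 kb 77 (72.7 to 78.8) and 46.2 (44.8 to 47.1). Since the call asked for control signal above EDKO signal, this rank is not independent of it. The regions themselves were somewhat narrower than those farther away, with median widths of 321 bp (95% interval of the median 302 to 341) and 358 bp (352 to 366), and filled less of a wider peak, 38.1% of 982 bp against 69.0% of 616 bp.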

How the data were processed

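ATAC-seq was made from surface ectoderm of E11.5 mouse facial prominences, with 2 control and 2 EDKO libraries. The authors trimmed adapters with NGmerge, aligned reads to mm10 (the GRCm38 assembly) with Bowtie2, keeping up to 10 alignments per read, sorted them with SAMtools and called peaks with Genrich in its ATAC mode, with duplicates removed and mitochondrial DNA left out. Control peaks were called on both control libraries together against a genome-wide background, and AP-2-dependent regions on both control libraries with both EDKO libraries as background, so values were not compared between the lists. The deposited lists hold a score, an area under the curve (also a score) and the summit −log10 p, which is not adjusted, in the usual Genrich order of columns. They hold no counts. The methods of the study give 1 approximate read depth for all libraries, and no read total of a single library was used here.

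Start sites came from GENCODE release 21 for mouse, with 1 per protein-coding gene: the principal APPRIS transcript, then the lowest transcript number. Distances run from the region centre, and positive values are downstream. Sequence patterns were counted on both strands of the soft-masked GRCm38 assembly in 150 bp either side of the summit. The copy number of a region was the median count of its 31-base words over the assembly, and below 2 it was called single-copy. Runs of repeated regions were joined over gaps of up to 100 kb. Shares have 95% Wilson intervals, and medians have 95% intervals taken from their ranked values. The functions for distances, intervals and patterns were tested on simulated data. Analyses used Python 3.11.15 with numpy 2.4.6, pandas 2.3.3 and scipy 1.17.1.

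No test between groups was made, since the lists are pooled. The members and gene lists were chosen with earlier results of these data known. Named were the listed genes and genes named by the study that had a proximal region, the 10 single-copy regions with the largest area, genes with at least 2 single-copy proximal regions, the 10 single-copy regions closest to a start site, and 3 regions on each side of the 5 kb limit. Alternatives were an area of at least 500, single-copy sequence only, summit positions, all annotated transcript starts, limits of 2 and 10 kb, an overlap of at least 50% of both intervals, and other windows and strings. Some items that this rule names are not reported here.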

Additional observations from a re-analysis of the deposited data

How the results depend on the processing

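No paired analysis was possible because the lists hold pooled calls and no test was made, and for the same reason no library could be left out. With an area of at least 500 the proximal regions numbered 122, 0.671% of proximal control peaks and 0.642% of genes had one, 46.7% of the regions were centred within 1 kb, the control peak covered the start site in 59% and 18% held GCCNNNGGC. With single-copy sequence only these shares were 1.32% of peaks, 1.21% of genes, 27.5% within 1 kb and 34.8% with a covered start site. With the start sites of all transcripts there were 553 regions, at 2.07% of peaks and 2.68% of genes, with a covered start site in 38.5%. A limit of 2 kb gave 171 regions, 1.15% of peaks, 0.902% of genes, a covered start site in 77.2% and a median GC content of 54.2%. A limit of 10 kb gave 506 regions, 1.96% of peaks, 2.75% of genes and a covered start site in 29.6%. An overlap of at least 50% of both intervals gave 0.573% of peaks. The causes of these moves were not tested, apart from the wider or narrower choice of regions that each setting makes by construction. The other values stayed within the interval of the reported one, or within 1.5 times it for the number of regions: all 7 with summit positions, and the share with GCCNNNGGC, which the area limit alone moved. For the single-copy share with CCTNAGG, 2 settings chosen after seeing the data, the whole region and leaving out 3 repeat gene models, gave 36.0% and 34.0%, against 33.6%. Without values per library, the spread between replicates behind any region is unknown.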
